A study of Mus musculus with 9 samples.

Results

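Most proteins of mitochondria are encoded in the nucleus, made in the cytosol and carried across the mitochondrial membranes by a set of dedicated machines. Expression of these import genes was compared between wild-type OVA-specific CD8+ T cells and cells lacking Tsc1, a brake on the growth kinase mTORC1. The genes were chosen by name, with earlier results of these data known. They comprise every gene whose platform symbol begins with Tomm or Timm followed by a digit, together with Samm50, Pam16, Dnajc19, Grpel1, Hspa9, Hspd1 and Hspe1. Of the 17097 genes measured, 28 met this rule and are called import genes below. Tomm40, Timm13, Timm8a1 and Hspd1 had no named single-gene probe set here and were not analysed.

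RNA from 9 samples was hybridised to 1 expression array each. The 4 WT samples came from C57BL/6 mice with Tsc1-fl/fl alleles and no cre, and the 5 Tsc1-/- samples from C57BL/6 mice with the same alleles and Granzyme B-cre. All mice were infected with Listeria monocytogenes, and at day 9 the T cells that recognise OVA, a model antigen, were sorted from the spleen. The age of the mice is not given in the sources used here. Granzyme B is a killing enzyme that cytotoxic lymphocytes switch on upon activation, and its promoter drives the cre here. Since cre was present in all Tsc1-/- mice and in no WT mouse, the presence of cre and the loss of Tsc1 cannot be told apart. The sources do not state whether different animals gave the samples, and the p-values below then cover the spread between these samples, which may be technical. Values are log2 expression levels, and differences are Tsc1-/- minus WT.

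The arrays resembled each other, with correlations over all probe sets of 0.982 to 0.991 and medians of 5.97 to 6.05, and no pair was identical. The sorted cells carried their defining markers: the 7 measured CD8 T cell genes, among them Cd8a, Cd8b1 and Cd3e, averaged between 11.6 and 11.7 on every array. The targeted gene, Tsc1, read 7.56 to 7.77 in WT and 7.27 to 7.51 in Tsc1-/-, which did not overlap, although the difference of -0.26 did not pass the test over all genes (limma, adjusted p = 0.114).

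Precursors enter mitochondria through the TOM complex of the outer membrane, where receptors recognise them and hand them to a channel. From there they take separate routes: the SAM complex builds barrel-shaped proteins into the outer membrane, small TIM chaperones escort hydrophobic precursors across the space between the membranes, the TIM22 complex inserts carrier proteins into the inner membrane, and the TIM23 channel passes precursors with a cleavable targeting signal towards the matrix. An import motor built around the chaperone Hspa9 pulls these into the matrix, and the chaperonin of Hspd1 and Hspe1 folds many of them. Activated T cells build up mitochondria, whose proteins arrive through these machines.

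Most import genes had small positive differences between Tsc1-/- and WT cells, and few passed the test. Of the 28 genes, 25 had a positive difference and 3 a negative one, and the median difference was 0.19, or 1.14-fold, beside -0.01 over all 17097 genes. The median was 0.14 after quantile normalization and 0.12 with each array's trend on level and gene length removed, and no import gene passed in either case. Timm8b, Dnajc19 and Tomm5 rose past the threshold, an adjusted p under 0.05 with limma over all genes. Those 3 of 28 stand beside 0.971% of all genes called higher, and 0 of 28 were called lower beside 0.31% of all genes (limma). At an unadjusted p under 0.05, 12 of 28 were higher, beside 9.83% of all genes, and 0 of 28 lower. Every Tsc1-/- array lay above every WT array for 9 of the 28, which holds for 5.08% of all genes. The reverse held for 0 of the 28 and for 2.88% of all genes.

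**Figure D1:**
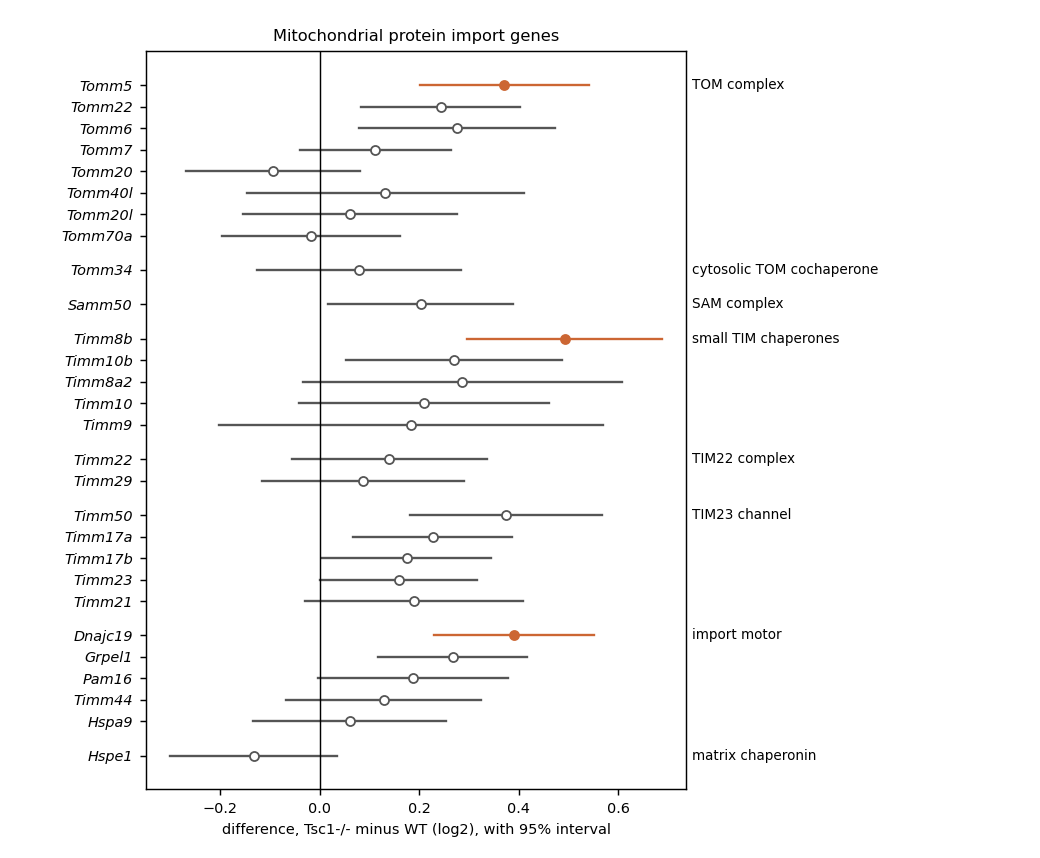
Difference in log2 expression, Tsc1-/- (n = 5) minus WT (n = 4), of the 28 import genes, one gene per line and grouped by role, with limma's 95% interval as a bar. Filled orange points are the 3 genes past an adjusted p under 0.05, and all points but those of Tomm20, Tomm70a and Hspe1 lie right of 0.

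Timm8b encodes a small chaperone of the intermembrane space, of the family that shields hydrophobic precursors. On WT replicates 1 to 4 it read 8.65, 8.39, 8.64 and 8.72, and on Tsc1-/- replicates 1 to 5 it read 9.12, 9.13, 8.96, 9.03 and 9.23. All Tsc1-/- arrays lay above all WT arrays, and WT replicate 2 was the lowest. Timm8b rose by 0.49 (SE 0.09, 1.41-fold), from 8.60 ± 0.14 (SD, n = 4) to 9.09 ± 0.10 (SD, n = 5), with an adjusted p of 0.0339 (limma) and an exact two-sided permutation p of 0.00794, the smallest that the 126 ways of dividing these arrays can give. It had the largest difference of the import genes, and a single probe set measured it.

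Dnajc19 encodes an inner membrane co-chaperone that stimulates Hspa9 at the exit of the TIM23 channel. Its WT values were 9.26, 9.31, 9.32 and 9.10, and its Tsc1-/- values were 9.68, 9.67, 9.62, 9.6 and 9.61, in the order of the replicates as in all that follows. The groups did not overlap, and the Tsc1-/- arrays lay closer to each other than the WT arrays did, of which replicate 4 was lowest. Dnajc19 rose by 0.39 (SE 0.07, 1.31-fold, adjusted p = 0.0359, limma), from 9.25 ± 0.10 (SD, n = 4) to 9.64 ± 0.04 (SD, n = 5). This rests on the brightest of 3 probe sets. The others differed by 0.07 (SE 0.09) and -0.20 (SE 0.16), and with the mean of the 3 the difference was 0.09 (adjusted p = 0.565, limma).

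Tomm5 encodes one of the small subunits that surround the TOM channel. It read 8.95, 8.93, 9.11 and 9.03 in WT and 9.29, 9.37, 9.36, 9.34 and 9.52 in Tsc1-/-. Again the groups did not overlap, and Tsc1-/- replicate 5 was the highest. Tomm5 rose by 0.37 (SE 0.08, 1.29-fold, adjusted p = 0.0437, limma), from 9.01 ± 0.08 (SD, n = 4) to 9.38 ± 0.09 (SD, n = 5), by its only probe set.

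**Figure D2:**
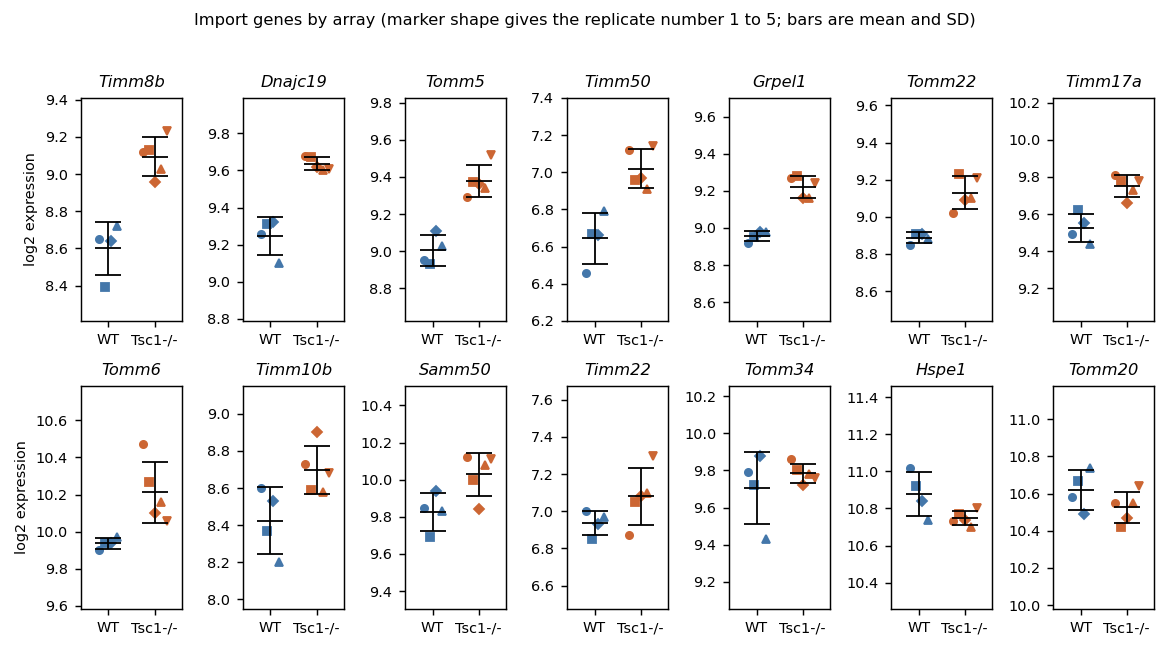
Log2 expression on each array for 14 import genes, WT in blue (n = 4) and Tsc1-/- in orange (n = 5), with marker shape for the replicate number, bars for mean and SD, and axes of equal span per gene. Timm8b, Dnajc19, Tomm5, Timm50, Grpel1, Tomm22, Timm17a and Tomm6 separate the genotypes, while Timm10b, Samm50, Timm22, Tomm34, Hspe1 and Tomm20 do not.

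These 3 calls were close to the threshold and depended on the processing and on the arrays included. After quantile normalization Timm8b, Dnajc19 and Tomm5 differed by 0.43, 0.32 and 0.31, none past the threshold (adjusted p = 0.0542, 0.0627 and 0.0777, limma). With every probe set tested by itself, Tomm5 missed it (adjusted p = 0.0553, limma). With 1 array left out, the differences stayed between 0.42 and 0.53 for Timm8b, 0.34 and 0.41 for Dnajc19, and 0.33 and 0.41 for Tomm5. All 3 passed without WT replicate 4 (adjusted p = 0.0250, 0.0391 and 0.0451) and without Tsc1-/- replicate 1 (adjusted p = 0.0459, 0.0479 and 0.0479), and only Timm8b without Tsc1-/- replicate 3 (0.53, adjusted p = 0.0466, limma). None passed without WT replicate 1, 2 or 3 or without Tsc1-/- replicate 2, 4 or 5, where the adjusted p ran up to 0.106 for Timm8b, 0.119 for Dnajc19 and 0.145 for Tomm5. Calls over all 17097 genes fell too in those fits, from 166 higher with all arrays to 1, 2, 70, 6, 21 and 1.

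The promoters of the 3 genes that rose are shown with that of Hspe1, the import gene with the most negative difference. That difference, -0.13, did not pass the test (adjusted p = 0.404, limma). Each window runs from 250 bases before to 50 bases after the listed start, 5′ to 3′ on the gene's strand, from RefSeq on build GRCm38.p6. Capitals mark matches on either strand to an ETS site as bound by GABPA (CCGGAAG), to the core of the NRF1 site (CGCANGCG), and to a pair of heat shock units (GAANNTTC). The windows are chr9:50603651-50603950 on the plus strand for Timm8b, chr3:34081305-34081604 on the minus strand for Dnajc19, chr4:45108064-45108363 on the minus strand for Tomm5 and chr1:55087898-55088197 on the plus strand for Hspe1.
Timm8b: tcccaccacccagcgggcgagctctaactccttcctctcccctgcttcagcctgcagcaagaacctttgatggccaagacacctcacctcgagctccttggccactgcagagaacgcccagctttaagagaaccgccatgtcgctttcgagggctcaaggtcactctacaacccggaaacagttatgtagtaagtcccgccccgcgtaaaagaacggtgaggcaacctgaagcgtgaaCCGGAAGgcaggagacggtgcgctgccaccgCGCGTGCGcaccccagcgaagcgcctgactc
Dnajc19: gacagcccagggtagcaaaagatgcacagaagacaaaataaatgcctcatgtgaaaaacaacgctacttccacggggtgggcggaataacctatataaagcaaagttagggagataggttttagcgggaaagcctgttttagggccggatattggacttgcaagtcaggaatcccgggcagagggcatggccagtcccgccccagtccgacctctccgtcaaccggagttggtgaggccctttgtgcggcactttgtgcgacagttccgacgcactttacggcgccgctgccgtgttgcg
Tomm5: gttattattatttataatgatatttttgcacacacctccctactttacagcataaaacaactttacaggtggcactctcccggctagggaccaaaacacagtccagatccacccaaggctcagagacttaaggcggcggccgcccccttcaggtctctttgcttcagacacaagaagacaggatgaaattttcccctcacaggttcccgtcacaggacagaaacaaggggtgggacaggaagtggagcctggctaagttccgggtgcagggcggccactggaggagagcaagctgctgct
Hspe1: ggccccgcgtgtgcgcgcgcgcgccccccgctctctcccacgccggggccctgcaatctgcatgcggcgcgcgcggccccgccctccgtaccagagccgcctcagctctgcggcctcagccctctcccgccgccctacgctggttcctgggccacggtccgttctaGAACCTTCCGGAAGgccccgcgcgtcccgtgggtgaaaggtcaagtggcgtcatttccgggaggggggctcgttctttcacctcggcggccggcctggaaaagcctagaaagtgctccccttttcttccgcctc

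Windows were listed for 24 of the 28 import genes and for 13514 of the genes measured. The ETS letters stood in 11 of the 24 (45.8%) and in 13.8% of all windows. Of those 11, the genotypes separated in 3 (Timm8b, Tomm22 and Grpel1) and overlapped in 8 (Tomm70a, Tomm34, Timm10b, Timm8a2, Timm10, Timm29, Timm23 and Hspe1). Every Tsc1-/- array lay above every WT array in 9 of all 28 import genes and in 5.08% of all genes. A link between the ETS letters and the difference was not tested. The NRF1 core was found in 5 of 24 (20.8%) against 13.4% of all windows, and the Myc E-box CACGTG in 4 of 24 (16.7%) against 9.04%. A YY1 site (AAGATGGC) was present in 1 of 24 against 3.75%, the paired heat shock units in 2 of 24 against 6.36%, and the cyclic AMP response element (TGACGTCA) in 0 of 24 against 2.70%. In the Hspe1 window the paired heat shock units overlap 2 ETS matches on opposite strands. None of the 6 motifs was found in the Dnajc19 or Tomm5 window. One of the windows listed for Hspd1, the other chaperonin gene, lies on the opposite strand and shares 285 bases with that of Hspe1.

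The other measured genes of the TOM complex did not pass the test, and the genotypes separated in Tomm22 and Tomm6. Tomm22, the central receptor that also holds the complex together, read 8.85, 8.91, 8.91 and 8.88 in WT and 9.02, 9.23, 9.09, 9.10 and 9.21 in Tsc1-/-. The WT arrays had an SD of 0.03, and all Tsc1-/- arrays lay above them. The difference of 0.24 (SE 0.07, 95% interval 0.08 to 0.40) did not pass (adjusted p = 0.115, limma). Tomm6, a small subunit, read 9.90, 9.94, 9.94 and 9.97 in WT and 10.47, 10.27, 10.10, 10.16 and 10.06 in Tsc1-/-. Its groups did not overlap either, with a wide Tsc1-/- spread led by replicate 1, and it differed by 0.28 (SE 0.09, adjusted p = 0.141, limma). Tomm7, another small subunit, differed by 0.11 (95% interval -0.04 to 0.26), with 1 overlapping array.

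Tomm20, the receptor for cleavable targeting signals, read 10.58, 10.67, 10.49 and 10.74 in WT and 10.55, 10.42, 10.47, 10.55 and 10.64 in Tsc1-/-. The groups overlapped, and the difference was -0.09 (95% interval -0.27 to 0.08, adjusted p = 0.599, limma). Tomm70a, the receptor for carrier precursors, differed by -0.02 (95% interval -0.20 to 0.16). Tomm40l, a relative of the channel gene Tomm40, differed by 0.13 (95% interval -0.15 to 0.41), with WT replicate 1 the lowest at 7.75 and WT replicate 2 at 8.43. A dimmer Tomm40l probe set differed by 0.42 (SE 0.17, adjusted p = 0.246, limma), and the mean of both by 0.28 (adjusted p = 0.270, limma). Tomm20l, a dim relative of Tomm20, differed by 0.06. Tomm34, a cytosolic co-chaperone of precursors, read 9.79, 9.72, 9.88 and 9.43 in WT and 9.86, 9.80, 9.72, 9.78 and 9.76 in Tsc1-/-. WT replicate 4 stood below the other arrays, the groups overlapped, and the difference was 0.08 (95% interval -0.13 to 0.28).

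Samm50, the core of the SAM complex, read 9.85, 9.69, 9.94 and 9.83 in WT and 10.12, 10, 9.84, 10.08 and 10.11 in Tsc1-/-. Only Tsc1-/- replicate 3 fell within the WT range, and the difference of 0.20 (95% interval 0.02 to 0.39) did not pass (adjusted p = 0.247, limma).

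All 5 measured small TIM chaperones had a positive difference, with a median of 0.27, and Timm8b was the only one past the threshold. Timm10b, which docks the chaperones on the TIM22 complex, read 8.60, 8.37, 8.53 and 8.20 in WT and 8.73, 8.59, 8.90, 8.58 and 8.68 in Tsc1-/-. WT replicate 1 reached into the Tsc1-/- range, WT replicate 4 was the lowest array, and the difference was 0.27 (SE 0.10, adjusted p = 0.189, limma). Its further probe set differed by 0.27 as well. Timm9 and Timm10 form a joint chaperone ring, and differed by 0.18 (95% interval -0.20 to 0.57) and 0.21 (95% interval -0.04 to 0.46). Timm9 was uneven within Tsc1-/-, at 7.24 and 7.08 on replicates 1 and 3 and 6.37 to 6.56 on the other three. Timm8a2, a relative of Timm8b near the floor of the array at 3.73 to 4.67, differed by 0.29 (95% interval -0.03 to 0.61).

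In the TIM22 complex, the channel subunit Timm22 read 7.0, 6.85, 6.93 and 6.97 in WT and 6.87, 7.05, 7.08, 7.10 and 7.30 in Tsc1-/-. Replicate 1 of Tsc1-/- lay among the WT arrays and the other four above them, for a difference of 0.14 (95% interval -0.06 to 0.34). A dimmer Timm22 probe set differed by -0.19, and the mean of both by -0.02. Timm29, a further subunit, differed by 0.09 (95% interval -0.12 to 0.29).

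The 5 genes of the TIM23 channel differed by 0.16 to 0.37, none past the threshold. In 3 of them every Tsc1-/- array lay above every WT array, which held for 5.08% of all genes. Timm50, the receptor that guides precursors from TOM to the channel, read 6.46, 6.67, 6.66 and 6.79 in WT and 7.12, 6.96, 6.97, 6.91 and 7.14 in Tsc1-/-. The groups did not overlap, and the difference of 0.37 (SE 0.09, 95% interval 0.18 to 0.57) fell short of the threshold (adjusted p = 0.0590, limma), which it passed without WT replicate 4 (0.42, adjusted p = 0.0406).

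Timm17a and Timm17b are alternative channel subunits. Timm17a read 9.49, 9.62, 9.55 and 9.44 in WT and 9.81, 9.78, 9.66, 9.73 and 9.78 in Tsc1-/-. Its groups did not overlap, and it differed by 0.23 (SE 0.07, exact permutation p = 0.00794, adjusted p = 0.135, limma). Timm17b also separated the genotypes, at 8.93 to 9.07 in WT and 9.08 to 9.33 in Tsc1-/-, with a difference of 0.17 (adjusted p = 0.276, limma). Timm23, the subunit that gives the channel its name, differed by 0.16 (95% interval 0.0011 to 0.32). Timm21, which links the channel to TOM and to the respiratory chain, differed by 0.19 (95% interval -0.03 to 0.41).

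In the import motor Dnajc19 alone passed the test. The nucleotide exchange factor Grpel1, which resets Hspa9 after each pull, read 8.92, 8.95, 8.98 and 8.98 in WT and 9.27, 9.28, 9.16, 9.16 and 9.24 in Tsc1-/-. The SD of the WT arrays was 0.03, and all Tsc1-/- arrays lay above them. Grpel1 differed by 0.27 (SE 0.07, 95% interval 0.12 to 0.42, adjusted p = 0.0738, limma). Pam16, the partner of Dnajc19 in the motor, differed by 0.19 (95% interval -0.0042 to 0.38) and Timm44, which tethers Hspa9 to the channel, by 0.13 (95% interval -0.07 to 0.32). Hspa9 itself read 8.70 to 8.82 in WT and 8.71 to 8.75 on Tsc1-/- replicates 2 to 5, with 9.08 on Tsc1-/- replicate 1. It differed by 0.06 (95% interval -0.13 to 0.25) with that array and by -0.0082 without it, and its other probe sets by 0.09 and 0.19.

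Hspe1, the lid of the matrix chaperonin, read 11.02, 10.92, 10.84 and 10.74 in WT and 10.73, 10.77, 10.74, 10.70 and 10.80 in Tsc1-/-. WT replicates 1 to 3 lay above all Tsc1-/- arrays and WT replicate 4 among them, and the difference was -0.13 (95% interval -0.30 to 0.03, adjusted p = 0.404, limma). Its second probe set differed by -0.10.

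**Figure D3:**
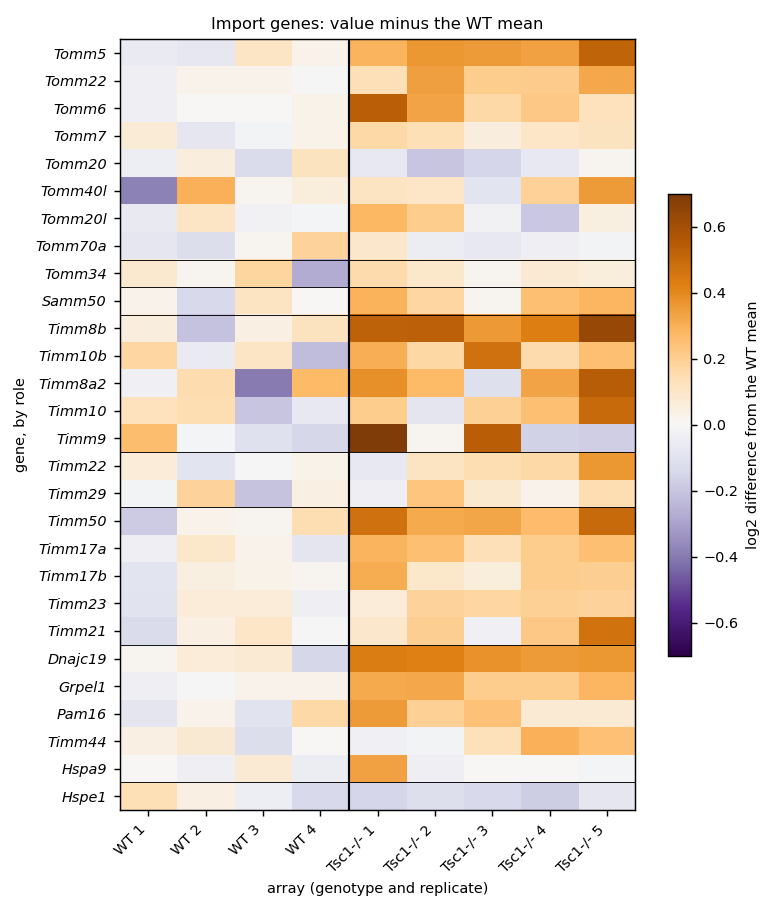
Log2 value of each import gene (rows, by role) on each array (columns, genotype and replicate number) minus that gene's WT mean, purple for lower and orange for higher. On each Tsc1-/- array 21 to 24 of the 28 genes lie above their WT mean (orange), while Tomm20, Tomm70a and Hspe1 are lower on average and others, such as Hspa9, Timm9 and Tomm20l, vary in sign between Tsc1-/- arrays.

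Read by array, the shift was present in each Tsc1-/- sample. The median import gene lay above its WT mean by 0.28, 0.18, 0.13, 0.20 and 0.25 on Tsc1-/- replicates 1 to 5. On each WT array it lay within 0.033 of that mean, which includes the array itself and so draws the value towards 0. The median of all genes lay within 0.02 of the WT mean on all 9 arrays. On the 5 Tsc1-/- arrays 18, 18, 16, 17 and 19 of the 28 genes exceeded the highest WT value, which 22.2% to 27.2% of all genes did. Tsc1-/- replicate 1 held the highest of the 9 values for 10 genes and replicate 5 for 8. Within a genotype the import genes had a median SD of 0.102 in WT and 0.105 in Tsc1-/-, and 15 of the 28 genes varied more in WT.

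Import genes are brighter than most genes, and brighter genes were higher in Tsc1-/- in general. Of the 28, 26 lay at or above 6.34, the median level over genes. Genes above that level had a positive difference in 57.6% of cases, with a median of 0.03, against 48.2% over all genes and 89.3% of the import genes. When only these brighter genes were tested, 6 of the 26 import genes rose, Tomm22, Timm50 and Grpel1 in addition (adjusted p = 0.0460, 0.0249 and 0.0263, limma), beside 6.34% of all 8549 genes tested. When each array's trend on level and gene length was removed, the median difference was 0.12, with 23 of 28 positive. Timm8b then differed by 0.40, Dnajc19 by 0.32 and Tomm5 by 0.25, none past the threshold (adjusted p = 0.0737, 0.0775 and 0.114, limma), and 6 of the 28 had an unadjusted p under 0.05.

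**Figure D4:**
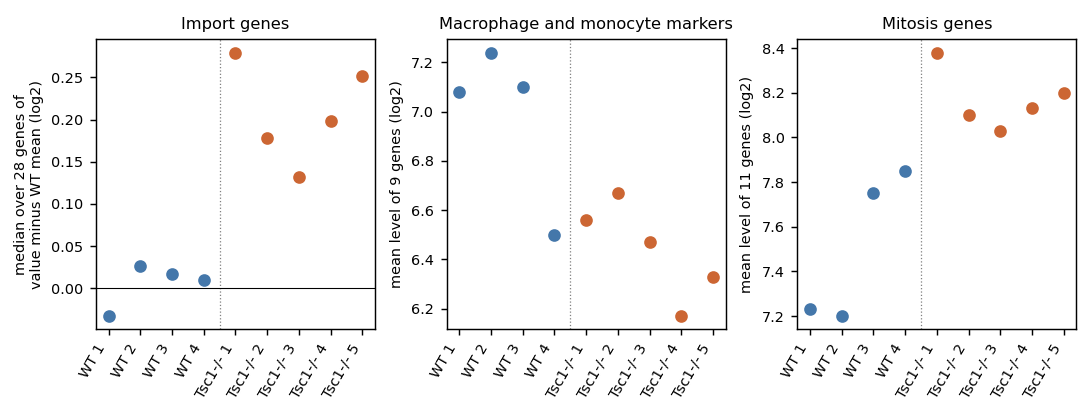
Values per array, WT in blue and Tsc1-/- in orange: the median import gene minus its WT mean (left), the mean level of 9 macrophage and monocyte markers (middle) and of 11 mitosis genes (right), all log2. WT replicate 4 has a macrophage level of 6.5, within the Tsc1-/- range, and a median import gene 0.01 above its WT mean. That mean includes WT replicate 4, and the relation between these levels was not tested.

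Other properties of the samples moved with genotype beside these genes. All 9 measured macrophage and monocyte markers had a negative difference, none past the threshold, and their mean level was 6.5 to 7.24 in WT and 6.17 to 6.67 in Tsc1-/-. Among the defining ones, Csf1r averaged 6.40 in WT and 5.94 in Tsc1-/-, and Adgre1 6.00 and 5.41. All 7 B cell markers were also on the lower side, at a mean of 6.25 to 7.14 in WT and 6.08 to 6.63 in Tsc1-/-. Neutrophil markers (6 of 6 negative, median -0.43), dendritic cell markers (6 of 6, median -0.19) and erythroid markers (3 of 4, median -0.25) lay on the same side, and none of them passed. Tsc1-/- replicate 2 had the highest neutrophil level of the 9 arrays, at 8.6, and the highest erythroid level, at 7.7. CD4 T cell markers had a median of -0.03 and NK cell markers of -0.18. Fewer such cells and less of their RNA per cell cannot be told apart in bulk samples. WT replicate 4, whose macrophage level of 6.5 fell within the Tsc1-/- range, had a median import gene 0.01 above the WT mean. That mean includes this array, and a single array gives no spread. The part of other cell types in the difference was not tested beyond this fit: with the macrophage level as a covariate, Timm8b differed by 0.39 (adjusted p = 0.429), Dnajc19 by 0.53 (adjusted p = 0.287) and Tomm5 by 0.32 (adjusted p = 0.451, limma), with a median of 0.16 over the import genes, 25 of 28 positive and 9 of 28 at an unadjusted p under 0.05. In that fit 0 of all 17097 genes were called.

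Of 11 mitosis genes, 5 were called higher in Tsc1-/-, beside 0.971% of all genes (limma). The mean level of the mitosis genes was 8.03 to 8.38 in Tsc1-/- against 7.2 to 7.85 in WT. Within WT their level was 7.23 and 7.2 on replicates 1 and 2 and 7.75 and 7.85 on replicates 3 and 4. The median import gene stood -0.03, 0.03, 0.02 and 0.01 from its WT mean on the same arrays. That mean includes these arrays, which draws the values towards 0. The part of division in the difference between genotypes was not tested.

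Of 43 other genes that work with the import machinery, 38 were measured. Of these, 29 had a positive and 9 a negative difference, with a median of 0.09. The difference was positive for 48.2% of all genes and for 57.6% of those at or above the median level. Past the threshold 1 of the 38 rose, beside 0.971% of all genes, and none was called lower (limma). At an unadjusted p under 0.05, 9 of 38 were higher, beside 9.83% of all genes, and 1 of 38 lower (limma). All Tsc1-/- arrays exceeded all WT arrays in 6 of the 38, beside 5.08% of all genes: Mtx1, Xpnpep3, Romo1, Timmdc1, Immt and Apool.

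The gene that rose was Immt, which encodes mitofilin, the core of the MICOS complex that shapes the folds of the inner membrane and contacts TOM and SAM. It read 7.61 to 7.77 in WT and 7.94 to 8.17 in Tsc1-/-, with no overlap. Immt rose by 0.36 (SE 0.08, adjusted p = 0.0494, limma), from 7.68 ± 0.07 (SD, n = 4) to 8.05 ± 0.10 (SD, n = 5). The call was lost in 8 of the 9 fits that left out 1 array (0.33 to 0.39, adjusted p up to 0.154, limma) and kept without Tsc1-/- replicate 1 (adjusted p = 0.0487). Another MICOS gene, Apool, differed by 0.26 (SE 0.07, adjusted p = 0.0761, limma), and 6 of the 7 MICOS genes were on the higher side.

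Mtx1, a partner of Samm50, differed by 0.32 (SE 0.08, adjusted p = 0.0618, limma), whereas Mtx3 differed by -0.24 (adjusted p = 0.246, limma). Of the inner membrane group, Romo1, which supports the TIM23 channel, differed by 0.22 (adjusted p = 0.165) and Timmdc1, named for its likeness to the TIM channel proteins and needed for complex I assembly, by 0.18 (adjusted p = 0.190, limma). The proteases that trim precursors had 6 of 6 positive differences, and those of smallest p were Xpnpep3 at 0.21 (adjusted p = 0.199) and Immp1l at 0.16 (adjusted p = 0.330, limma). Pmpca and Pmpcb, the subunits of the peptidase that removes targeting signals, differed by 0.01 (95% interval -0.16 to 0.18) and 0.08 (95% interval -0.09 to 0.26).

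In the intermembrane space, Chchd4, which oxidises small imported proteins, differed by -0.11 and its partner Aifm1 by 0.24 (adjusted p = 0.692 and 0.275, limma). Among matrix proteases Clpp differed by 0.25 and Htra2, which lies in the intermembrane space, by -0.13 (adjusted p = 0.211 and 0.508, limma). Of the further motor and matrix chaperones, Dnajc15 and Trap1 differed by 0.11 and 0.09 (adjusted p = 0.554 and 0.648, limma). Cytosolic chaperones that deliver precursors gave small differences, 0.10 for Dnajb1 and 0.07 for Dnaja2 (adjusted p = 0.790 and 0.713, limma), and -0.02 (95% interval -0.19 to 0.15) for Hspa8.

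**Figure D5:**
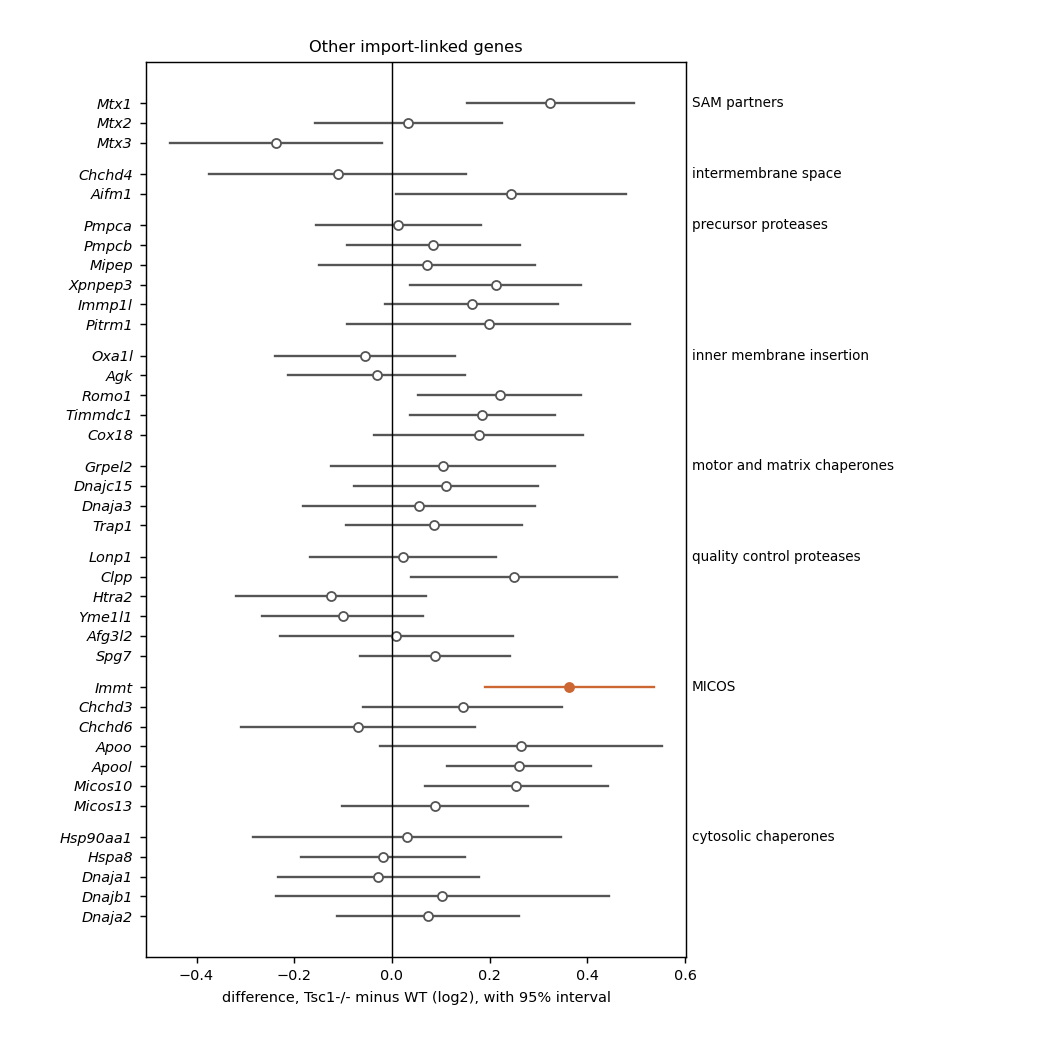
Difference in log2 expression, Tsc1-/- (n = 5) minus WT (n = 4), of the 38 other import-linked genes, grouped by function, with limma's 95% interval. Immt, filled orange, is the 1 gene past an adjusted p under 0.05, and the MICOS group has 6 of 7 points right of 0.

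Probe sets of 1 gene did not all give the same direction. Of the 16 import genes with several probe sets, 10 had 1 direction in all and 6 had both, namely Tomm7, Tomm20, Samm50, Timm9, Timm22 and Dnajc19. For Tomm7 the 3 brighter probe sets differed by 0.11, 0.13 and 0.23, and the dim one, at 6.35 in WT, by -0.23. In 7 of the 28 the probe set used carried the platform's s or x suffix, which marks probes shared with other transcripts: Timm8a2, Pam16, Hspe1, Tomm7, Samm50, Timm10b and Timm17b. None of the 3 genes that rose was among them.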

How the data were processed

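The authors deposited log2 expression levels, 1 per probe set and array. The submitters' processing notes name RMA and Partek 6.5, with no options stated. RMA as usually run makes the arrays' distributions alike, which hides a shift common to most genes. Per the labels' protocols, 12 ng of RNA per sample was amplified.

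Of 45037 probe sets, 28898 had 1 gene in the platform annotation. Symbols were updated through Entrez identifiers with RefSeq (GRCm38.p6), and the brightest probe set by its 9-array mean stood for each of 17097 genes. All genes were fitted with limma 3.58.1 in R 4.3.3, genotype as the only term, with Benjamini-Hochberg adjustment over all of them and a threshold of 0.05, and the fit was tested on simulated data. Single genes also had an exact two-sided permutation test. The number of arrays limits the precision. The import genes, lists and tests were chosen with earlier results of these data known. Values of every array are given for import genes past the threshold, those of smallest p up to 10, the smallest p of each role and the 2 most negative. Of the 38 linked genes, those past the threshold and the 2 of smallest p per group are named, with a few chosen after their values were seen (Pmpca, Pmpcb and Hspa8). Motifs were chosen after the results were known. Alternatives covered probe sets, dim genes, normalization, variance, weights, the replicate number, the macrophage level and each array left out. Figures were drawn in Python 3.11.15.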

Additional observations from a re-analysis of the deposited data

Results flagged for a closer look

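In 2 of 58 groups of 4 or 5 arrays tested (28 import genes and Tsc1 in each genotype), 1 array stood far from the others by Dixon's criterion, which chance meets in about 5% of groups. Hspa9 read 9.08 on Tsc1-/- replicate 1, where the next array read 8.75 and the lowest 8.71. Timm23 read 9.73 on the same array, below the other Tsc1-/- arrays, of which the nearest read 9.84 and the highest 9.86.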

How the results depend on the processing

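Of the 28 import genes, 24 kept their direction under every alternative run. The 11 values with the opposite direction were all small: Hspa9 at -0.0058 after quantile normalization, -0.0315 without the trend on level and length, and -0.023 without WT replicate 4 and Tsc1-/- replicate 1 (a pair left out after seeing the data), Tomm70a at 0.0106 after median centring and 0.0176 without the pair, Tomm34 at -0.00077 without the trend and -0.0338 without the pair, and Timm22 at -0.0235 with probe sets averaged. With 1 array left out, Hspa9 ran from -0.0082 (without Tsc1-/- replicate 1) to 0.0843, Tomm70a from -0.0575 to 0.0441 and Tomm34 from -0.0142 to 0.138, where Tomm70a and Tomm34 turned without WT replicate 4. The count of 3 import genes called higher was 0 after quantile normalization, without the trend, with the replicate block and with the macrophage level as a covariate, where 8, 6, 10 and 9 of 28 had an unadjusted p under 0.05 (limma), against 12 with none of these changes. With the block or the covariate 0 of all 17097 genes were called in either direction. No WT array shares the number of Tsc1-/- replicate 5, so the block's differences do not draw on that array. The count of import genes called higher was 6 with dim genes left out. It was 5 after median centring, with a variance trend, and at an adjusted p under 0.1, and 0 to 4 with 1 array left out. For the other linked genes the count of 1 was 0 under the same settings that gave 0 above, with probe sets not joined and without the pair, 3 under the settings that gave 5 or 6, and 0 to 1 with 1 array left out. Counts called lower were 0 throughout. The median difference of 0.19 was 0.14 after quantile normalization, 0.12 without the trend, and 0.15 to 0.20 with 1 array left out. Of all genes, 166 were higher and 53 lower, against 338 and 63 after median centring, 43 and 34 after quantile normalization, and 55 and 44 without the trend. With each genotype's mean removed, WT and Tsc1-/- arrays of the same replicate number correlated at -0.10, 0.09, -0.07 and 0.02 over all genes. Arrays of different numbers were not compared, so these values cannot decide whether the samples were paired. The replicate block left a median of 0.16. The causes of these changes were not tested. Signal over background was not analysed here, so the dimmest genes, Timm8a2 and Tomm20l, are the least certain.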
